A study of Mus musculus with 235 samples.

Results

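Znfx1 encodes a zinc finger-containing RNA helicase of superfamily 1 that senses viral RNA, and it was followed here across 8 mouse brain regions together with 8 other genes of the interferon pathway. These were Stat2, Stat3 and Irf3 (signalling), Ifitm3 and Bst2 (antiviral effectors), and B2m, H2-D1 and H2-K1 (MHC class I). The 9 genes are rows, out of 27998 genes, of 1 count table that covers 118 vehicle and 117 dexamethasone libraries. Znfx1 was selected on its region-dependent response to dexamethasone in these same libraries, so its values are given as a description with no test. The other 8 were chosen from the interferon pathway to be set beside it. Which of their values had been seen when they were chosen is not recorded, and their calls are read only against the share of all genes called.

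Type I interferons bind the receptor subunits Ifnar1 and Ifnar2. Jak kinases then phosphorylate Stat proteins, Stat2 among them, which with Irf9 bind interferon-stimulated response elements (ISRE) upstream of antiviral genes. Intracellular RNA sensors act earlier, through Tbk1 and Irf3, to switch interferon on. MHC class I molecules, made of a heavy chain such as H2-K1 or H2-D1 and the light chain B2m, present peptides to cytotoxic T cells, and neurons carry little of them at rest. Glucocorticoids such as dexamethasone act through a nuclear receptor that binds glucocorticoid response elements (GRE) and dampens many inflammatory genes.

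All animals were male C57Bl/6 mice aged 3 months. The 15 vehicle animals had saline and the 15 dexamethasone animals a single intraperitoneal dose of 10 mg/kg, and tissue was taken after 4 h. The regions are named as the submitters name them (AMY, CER, dCA1, dDG, PFC, PVN, vCA1, vDG). Each arm of a region holds 13 to 15 libraries, 1 per animal, and the same animals supply all regions. A punch holds neurons, glia and vessels together, so fewer cells of a type and less RNA per cell cannot be told apart.

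Libraries held 268538 to 1451422 counts, with a median of 742957. Levels are CPM, which are counts relative to library size, after scaling by the trimmed mean of M values (TMM) over all libraries. Responses are log2 fold changes of dexamethasone over vehicle with their standard error (SE) from a fit of each region. A gene is said to have risen or fallen where edgeR's quasi-likelihood test gave a Benjamini-Hochberg adjusted p under 0.05 over all genes tested in that region.

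The sequences before the transcription starts were searched for 3 short sets of letters, which are not all forms of interferon-type elements. RefSeq promoter windows (GRCm38.p6) were found for all 9 genes, and the 250 bases before each start were searched on both strands. The searched letters were GAAANNGAA (ISRE-type), TTCNNNGAA (the gamma-activated site, GAS, to which Stat dimers bind) and ACANNNTGT (GRE-type). Of 32851 promoter windows of this length, 7.13% held the first, 7.02% the second and 5.84% the third. Capitals mark every match. Znfx1 has 2 starts in the table: the window of the first (chr2:167063016-167063265, minus strand, overlapping an exon of the noncoding gene Zfas1 on the other strand) held none of the 3, and that of the second (chr2:167043496-167043745, minus strand, within the gene) held 1 GRE-type match 161 bases before the start.

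Znfx1, first start: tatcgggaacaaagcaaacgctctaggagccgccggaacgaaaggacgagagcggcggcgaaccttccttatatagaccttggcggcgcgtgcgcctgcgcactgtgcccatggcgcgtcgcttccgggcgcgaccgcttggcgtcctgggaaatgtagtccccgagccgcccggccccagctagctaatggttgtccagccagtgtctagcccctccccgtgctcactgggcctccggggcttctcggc

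Znfx1, second start: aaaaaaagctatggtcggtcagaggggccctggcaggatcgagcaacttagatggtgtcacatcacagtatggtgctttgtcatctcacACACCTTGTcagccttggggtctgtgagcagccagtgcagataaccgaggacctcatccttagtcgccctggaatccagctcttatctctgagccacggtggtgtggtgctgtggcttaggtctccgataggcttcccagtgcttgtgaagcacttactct

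The windows of B2m (chr2:122147437-122147686, plus strand) and Stat2 (chr10:128270248-128270497, plus strand) each held 1 ISRE-type match, 139 and 221 bases before the start, and in both the matched letters read GAAACTGAA, in Stat2 on the reverse strand. Bst2 (chr8:71537473-71537722, minus strand) held 1 GAS match 136 bases before the start and 2 ISRE-type matches 130 and 124 bases before it. Each overlaps its neighbour. The windows of Stat3, Irf3, Ifitm3, H2-D1 and H2-K1 held no match. Other orders of ISRE-type letters were not searched, and the windows of H2-D1 and H2-K1 both hold tttcacttc. A match is a description of letters, and no match says only that the searched letters are not in the window.

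B2m: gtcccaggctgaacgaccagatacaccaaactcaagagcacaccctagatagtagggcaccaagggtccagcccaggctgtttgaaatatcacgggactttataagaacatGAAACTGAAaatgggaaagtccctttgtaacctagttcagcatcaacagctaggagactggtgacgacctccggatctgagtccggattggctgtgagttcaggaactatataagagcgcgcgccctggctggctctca

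Stat2: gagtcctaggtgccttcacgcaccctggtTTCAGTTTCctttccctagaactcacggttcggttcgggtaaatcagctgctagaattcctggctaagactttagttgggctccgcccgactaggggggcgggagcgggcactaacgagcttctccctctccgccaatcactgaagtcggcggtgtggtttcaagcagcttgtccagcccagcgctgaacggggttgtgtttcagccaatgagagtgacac

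Bst2: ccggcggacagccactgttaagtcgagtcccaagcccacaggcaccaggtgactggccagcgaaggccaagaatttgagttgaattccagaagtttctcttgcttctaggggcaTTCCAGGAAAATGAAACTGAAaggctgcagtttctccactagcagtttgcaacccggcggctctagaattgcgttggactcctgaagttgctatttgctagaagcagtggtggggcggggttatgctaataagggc

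Znfx1 (ENSMUSG00000039501, chr2:167035793-167063015, minus strand) was higher after dexamethasone in 7 regions and near its vehicle level in PFC. It was 3.71-fold higher in CER, 2.79-fold in AMY and 2.32-fold in PVN, against 1.05-fold in PFC. First place among the regions changed with treatment: PFC held the most Znfx1 in vehicle animals and CER the most in dexamethasone animals.

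In CER, vehicle libraries ran from 19.9 through a median of 28.0 to 34.1 CPM, and dexamethasone libraries from 70.7 through 95.9 to 157.3 CPM. Every dexamethasone library of CER thus lay above every vehicle library. Of the genes tested in CER 0.553% did so, from which nothing is read, since Znfx1 was selected on this response. The log2 fold change in CER was 1.89 ± 0.11 (SE, n = 15 and 15). AMY libraries ran from 14.7 through 24.2 to 43.9 CPM in vehicle and from 40.8 through 64.7 to 127.5 CPM after dexamethasone. All but 1 of the 15 treated AMY libraries exceeded the highest vehicle library. The AMY log2 fold change was 1.48 ± 0.17 (SE).

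PVN libraries ran from 11.7 through 20.3 to 32.9 CPM in vehicle and from 31.1 through 49.9 to 72.0 CPM after dexamethasone, with 14 of 15 treated libraries above the highest vehicle library and a log2 fold change of 1.21 ± 0.13 (SE). vDG libraries ran from 16.5 through 23.2 to 40.3 CPM and from 26.3 through 47.2 to 104.0 CPM, a log2 fold change of 0.98 ± 0.18 (SE). In vDG 10 of 15 treated libraries lay above all vehicle libraries, so the groups overlapped more than in PVN.

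The 3 remaining hippocampal punches responded less. dCA1 libraries ran from 8.68 through 23.6 to 35.5 CPM in vehicle and from 25.2 through 34.8 to 62.2 CPM after dexamethasone, a log2 fold change of 0.80 ± 0.16 (SE). vCA1 libraries ran from 17.6 through 25.3 to 34.3 CPM and from 13.1 through 38.6 to 82.8 CPM, a log2 fold change of 0.59 ± 0.16 (SE). In vCA1 the lowest library of all was a treated one. dDG libraries ran from 16.4 through 28.5 to 42.5 CPM and from 24.3 through 36.1 to 69.4 CPM, a log2 fold change of 0.53 ± 0.16 (SE), with 6 of 15 treated libraries above all vehicle libraries.

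PFC stood apart from the other 7 regions. Its vehicle libraries ran from 25.2 through 37.8 to 50.7 CPM and its treated libraries from 24.3 through 39.2 to 64.0 CPM. The 2 groups covered nearly the same range, and the log2 fold change was 0.06 ± 0.12 (SE, n = 14 treated and 15 vehicle). With the level of endothelial markers as a covariate, a setting added after seeing the data, the value was 0.37 in PFC, 0.85 in dDG and 2.36 in AMY.

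**Figure D1:**
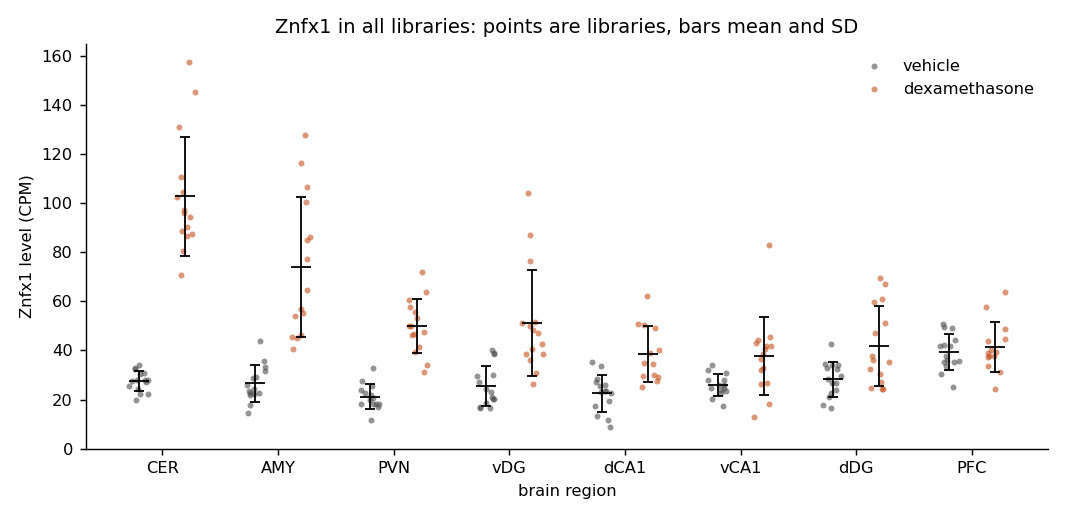
Znfx1 level in CPM (vertical axis) in each library of the 8 regions (horizontal axis), vehicle in grey and dexamethasone in orange, with the mean and SD of each group as a bar. CER shows the widest gap, from a mean of 27.6 to 102.8 CPM, and the PFC groups overlap at means of 39.25 and 41.4 CPM.

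In vehicle animals the mean Znfx1 level ranged from 39.25 ± 7.29 CPM (SD, n = 15) in PFC to 21.2 ± 5.22 CPM (SD, n = 14) in PVN. The step from PFC down to dDG, at 28.3 CPM, was the only one of the 7 between neighbouring regions that exceeded the larger of the 2 SDs. Within animals, CER was below PFC in 15 of 15 vehicle animals, by a mean of -0.43 ± 0.23 (SD) on the log2 scale. After dexamethasone CER was above PFC in 14 of 14 animals, by 1.28 ± 0.39 (SD), and AMY in 12 of 14. The order after dexamethasone was CER, AMY, vDG, PVN, dDG, PFC, dCA1 and vCA1, with only 1 of 7 neighbouring steps over 1 SD.

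Batches were compared where both arms held at least 2 libraries. With libraries compared only within a sequencing plate, treated libraries were higher on average in 28 of 28 combinations of plate and region outside PFC, and in 2 of 4 in PFC. The same counts were found within 4 of the 5 dates of punching, and the other date, with 1 vehicle animal, was not compared. The PFC libraries also had the highest RNA integrity numbers, with group means of 7.75 and 7.81 against 5.69 to 6.69 elsewhere, and the part of this difference in the result was not tested beyond fits with the number as a covariate, which are among the settings of the closing section.

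Exons of Znfx1 overlap by 82 bases those of Zfas1, a noncoding host of small nucleolar RNAs on the opposite strand. Whether counting used strand is not given in the sources used here. Zfas1 differed by 0.39 ± 0.13 (SE) in CER, 0.33 ± 0.11 in AMY and 0.29 ± 0.10 in PVN on the log2 scale, and by 0.02 to 0.22 in the other 5 regions. It passed the test in no region (adjusted p of 0.07151, 0.07012 and 0.0716 in the 3 named regions). The overlap is 1.001% of the exon bases of Znfx1.

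The size of the Znfx1 response followed the amount of oligodendrocyte RNA in the punch. This was looked at after the values were seen, because the genes most correlated with Znfx1 over libraries were Olig1 (a transcription factor of the oligodendrocyte lineage, r = 0.59), Mag (a myelin glycoprotein, r = 0.58) and Sept4 (a septin, r = 0.53). Those are Pearson correlations of log2 CPM (prior count 2) with the mean of each of the 16 groups removed, over all libraries and out of 8362 genes compared. Libraries of an animal share that animal, and all share the depth of their library.

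The summed level of 6 oligodendrocyte markers, among them Mbp, Mog and Mag of myelin, averaged 13140 CPM in vehicle CER, 9288 in AMY, 6327 in vDG, 5142 in PVN, 4372 in vCA1, 4092 in dDG, 3282 in dCA1 and 2436 in PFC. Across the 8 regions the log2 of this level had a Pearson r of 0.94 with the log2 fold change of Znfx1. Without CER and AMY, the 2 regions farthest from the median marker level on the log2 scale, r was 0.81 over 6 regions. PFC lay almost as far as AMY, and without CER and PFC r was 0.80. Over all 8 regions, r with the vehicle level of Znfx1 was -0.29, and with the dexamethasone level 0.92. The regions come from the same animals, and these values are descriptions.

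The correlation over libraries that prompted this look was then split by arm, which is no independent support, and Mag is 1 of the 6 markers. With each group centred at 0, the mean log2 level of the 6 markers had an r of 0.75 with Znfx1 over the 117 dexamethasone libraries and 0.23 over the 118 vehicle libraries. Within single groups, r after dexamethasone was 0.89 in dDG, 0.85 in CER, 0.81 in AMY, 0.80 in PFC, 0.79 in vCA1, 0.78 in vDG, 0.63 in dCA1 and 0.39 in PVN, positive in 8 of 8. In vehicle groups it ranged from -0.39 in CER to 0.69 in vDG and was positive in 6 of 8. The difference between the arms was not tested.

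**Figure D2:**
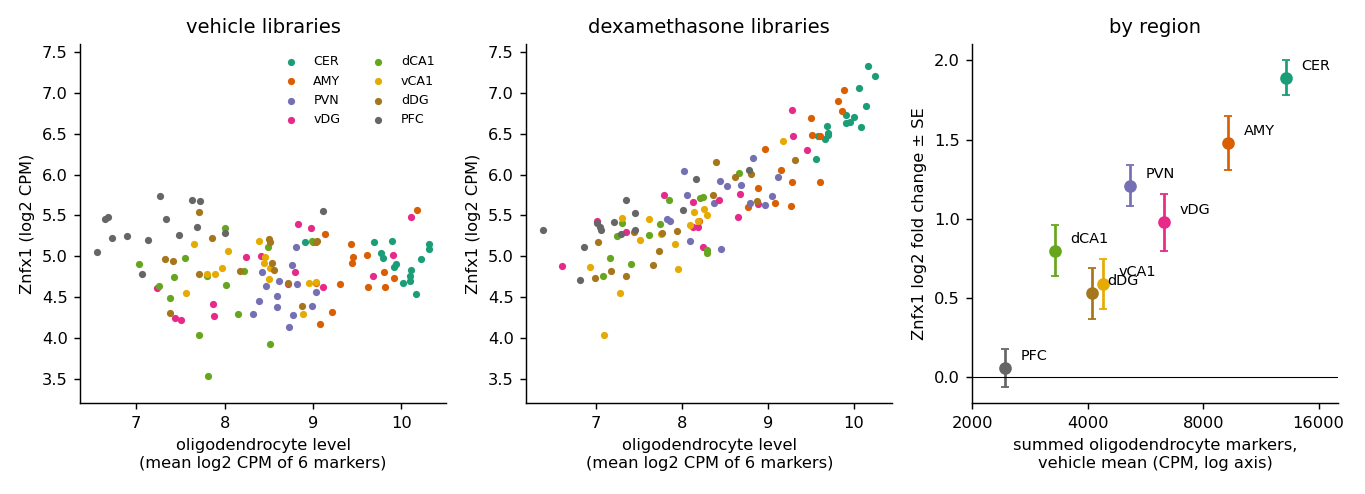
Left and middle, Znfx1 (vertical, log2 CPM) against the mean log2 CPM of 6 oligodendrocyte markers (horizontal) in each vehicle and each dexamethasone library, coloured by region; right, the Znfx1 log2 fold change with its SE against the vehicle mean of the summed markers in CPM (log axis) for the 8 regions. The treated libraries rise along the marker level (r = 0.75 with groups centred) and the vehicle libraries form a flatter cloud (r = 0.23).

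Of 48 tests of the 6 markers over the 8 regions, 0 rose and 1 fell (Mog in AMY). Their summed level ran from 10200 to 16330 CPM in treated CER and from 6918 to 15600 CPM in vehicle CER, and from 1163 to 6515 and 1214 to 7519 CPM in PFC. Its median was lower after dexamethasone in 6 of 8 regions, at 3437 against 4661 CPM in vCA1, 4329 against 5477 in vDG, 3022 against 4351 in dDG, 2801 against 3073 in dCA1, 13400 against 13910 in CER and 4991 against 5156 in PVN, with overlapping ranges. When the marker level was added to the fits as a covariate, an alternative chosen after seeing the data, the log2 fold change of Znfx1 was 1.90 in CER, 1.6 in AMY, 1.26 in PVN, 1.05 in vDG, 0.82 in dCA1, 0.76 in vCA1, 0.59 in dDG and 0.05 in PFC. The largest move was that of vCA1, from 0.59.

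The other members had lower correlations with oligodendrocyte RNA after dexamethasone. With groups centred, their r with the marker level after dexamethasone ran from 0.10 (Ifitm3) to 0.39 (B2m), and in vehicle libraries from 0.07 (Stat2) to 0.37 (H2-K1). Within single treated groups r of B2m was 0.77 in AMY and 0.65 in vDG, and 0.11 to 0.50 in the others. In vehicle groups r of B2m ran from -0.22 in vCA1 to 0.69 in AMY. For Stat3, Irf3, B2m, H2-D1 and H2-K1, tested in all 8 regions, the r of the 8 fold changes with the vehicle marker level ran from -0.37 to 0.42.

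The genes whose 8 responses lay nearest to those of Znfx1, by root mean square difference out of 7923 genes, were Phactr3 (0.2355), Ccng1 (0.2781), Nt5c3 (0.2808), Phactr4 (0.3095) and Polr3e (0.3107). None of the 5 is in the interferon lists used here. Phactr3 and Phactr4 encode phosphatase and actin regulators, Ccng1 cyclin G1, Nt5c3 a pyrimidine nucleotidase and Polr3e a subunit of RNA polymerase III. Their log2 fold changes in CER were 1.73, 2.15, 1.66, 1.83 and 1.63, and in PFC 0.40, 0.55, 0.16, 0.70 and 0.73. All 5 were thus higher in PFC than the 0.06 of Znfx1, and since they were picked for likeness on this contrast no test is given.

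Over libraries, r of these 5 with oligodendrocyte RNA was also higher after dexamethasone than in vehicle, by differing amounts, and the difference was not tested. With groups centred, r with the oligodendrocyte marker level was 0.64 for Phactr3, 0.47 for Ccng1, 0.65 for Nt5c3, 0.74 for Phactr4 and 0.78 for Polr3e in dexamethasone libraries. In vehicle libraries the values were 0.09, 0.27, 0.01, 0.40 and 0.19. Over the 8 regions, r of their fold changes with the vehicle marker level was 0.88, 0.95, 0.97, 0.96 and 0.96, beside 0.94 for Znfx1, which likeness to its response brings with it.

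Of the 64 combinations of region and gene for the other 8 members, 51 had counts enough to be tested. Of these 1 rose (Stat3 in dCA1) and 1 fell (Ifitm3 in dDG), against 3.23% of 71817 tests over all genes that rose and 1.94% that fell. An unadjusted p under 0.05 was found in 6 of the 51. The share of all genes at that unadjusted threshold is not given here, so nothing is read from such counts, here or for the lists below. Of the 51 values 20 were positive and 31 negative, with a median of -0.10 on the log2 scale beside -0.006793 for all genes. The counts of calls are near what the background shares give, so they are no result about these genes as a set.

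**Figure D3:**
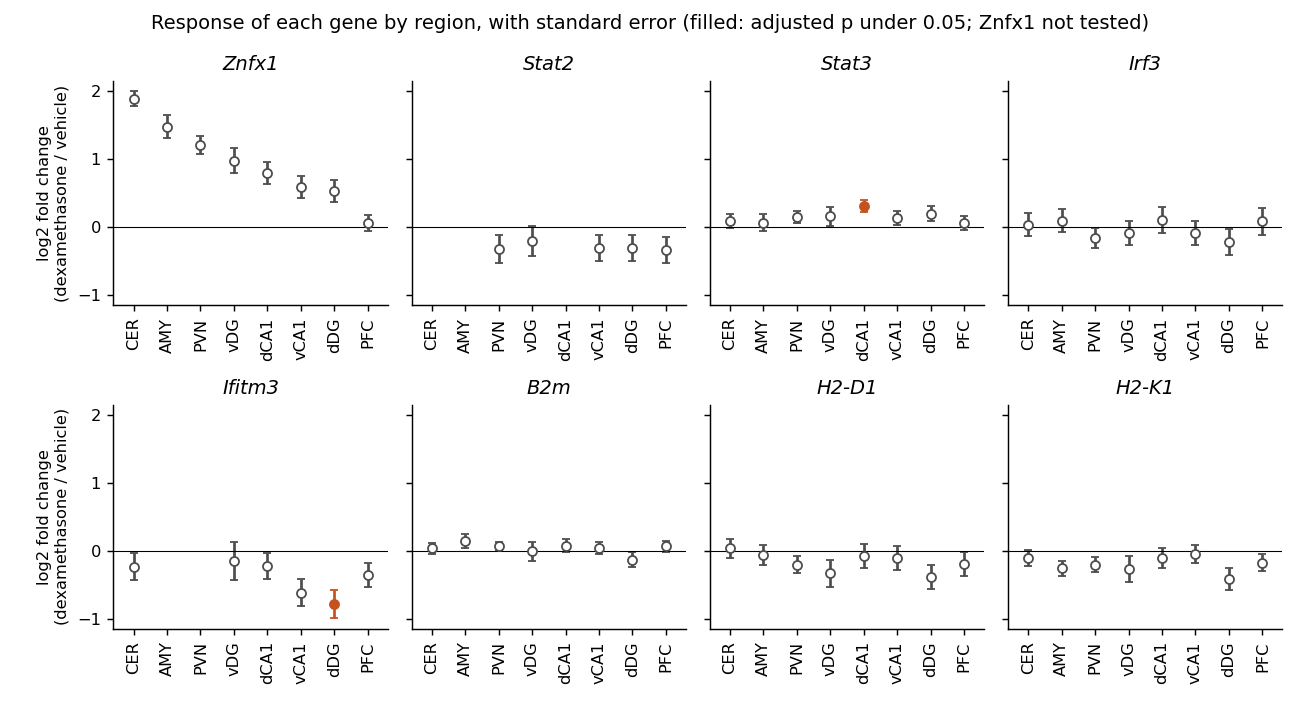
Log2 fold change of dexamethasone over vehicle (vertical) with its SE for Znfx1 and 7 other members in each region (horizontal); filled points passed edgeR's quasi-likelihood test at an adjusted p under 0.05, open points did not, and Znfx1 was not tested. Znfx1 falls from 1.89 in CER to 0.06 in PFC, while the other genes lie between -0.78 and 0.31.

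Among the signalling members, Stat3, which carries interleukin-6 family and interferon signals, was positive in 8 of 8 regions, at 0.06 to 0.31. In dCA1 its vehicle libraries ran from 65.5 through 75.7 to 134.1 CPM and its treated libraries from 82.3 through 99.6 to 128.0 CPM. The groups overlapped, with 9 of 15 vehicle libraries below the lowest treated one. Stat3 rose there by 0.31 ± 0.09 (SE, n = 13 treated and 15 vehicle; edgeR's quasi-likelihood test, adjusted p = 0.04904), and over 9 other settings that adjusted p ran from 0.004148 to 0.04973. In the other 7 regions adjusted p was 0.4787 or more, but with the endothelial level as a covariate Stat3 passed in vDG (0.58, adjusted p = 0.01183). Exons of Stat3 and Stat5a, on the other strand, overlap by 72 bases, and reads there cannot be told apart without strand.

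Stat2, a subunit of the transcription factor complex that type I interferon activates, was negative in the 5 regions where it was tested, at -0.33 to -0.20, and passed in none (lowest adjusted p = 0.4652, edgeR's quasi-likelihood test). Its highest group mean was 17.2 ± 7.94 CPM (SD, n = 15) in vehicle vDG and its lowest 10.6 CPM. Irf3, the factor that RNA sensors activate through Tbk1, was positive in 4 regions and negative in 4, between -0.22 and 0.11 (lowest adjusted p = 0.7528). Exons of Irf3 overlap those of Bcl2l12 on the other strand by 88 bases, so the same limit on strand holds. Its group means lay between 14.4 and 21.7 CPM, and the ranges overlapped in every region.

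Of the other genes of interferon reception and JAK-STAT signalling, 10 of 16 in the table were tested, in 70 tests, of which 1 rose and 3 fell. Over all genes 3.23% of tests rose and 1.94% fell. These shares also stand beside the counts of the regulatory factors, sensing genes and effectors below. None of these counts is read as a result about its list. The median of the 70 values was 0.08. All 3 falls were of Ifnar2, a subunit of the type I interferon receptor, at -0.67 ± 0.18 (SE) in CER (adjusted p = 0.01188), -0.64 ± 0.15 in PFC (0.002994) and -0.61 ± 0.15 in vCA1 (0.008778). Ifnar2 was negative in the other 5 regions too, at -0.51 to -0.17, and in vCA1 it did not pass with the level of dentate markers as a covariate (adjusted p = 0.07953). Its value in vCA1 ran from -0.62 to -0.53 over 9 planned settings. With the replicate block Stat5b also passed, in dCA1 (0.63, adjusted p = 0.04114). Pias1, an inhibitor of activated Stats, rose in CER by 0.36 ± 0.11 (SE, adjusted p = 0.03212). Of the interferon regulatory factors other than Irf3, only Irf2 and Irf9, of 8, had counts enough, and 1 of 16 tests passed, a rise of Irf2 in vDG by 0.46 ± 0.12 (SE, adjusted p = 0.01218).

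Of the genes of nucleic acid sensing other than Znfx1, 4 of 17 were tested (Adar, Tbk1, Tlr3 and Traf3). Of their 32 tests 1 passed, beside 3.23% that rose and 1.94% that fell over all genes. This was a rise of Tbk1, the kinase that activates Irf3, in dDG by 0.34 ± 0.10 (SE, adjusted p = 0.03787), which did not pass under upper-quartile scaling or a filter of 10 counts in every library (adjusted p up to 0.05479). Its value in dDG ran from 0.32 to 0.36 over 9 planned settings. Tlr3, the endosomal receptor for double-stranded RNA, was negative in 8 of 8 regions, at -0.45 to -0.06, and passed in none (lowest adjusted p = 0.08143). With the replicate block, Tlr3 fell in dDG (-0.46, adjusted p = 0.0413). The 4 other helicases of the superfamily 1 group around Znfx1 that were tested, among them Upf1 of RNA decay and the splicing factor Aqr, passed in 0 of 32 tests (0 with an unadjusted p under 0.05, 0 with DESeq2) and lay between -0.16 and 0.22.

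**Figure D4:**
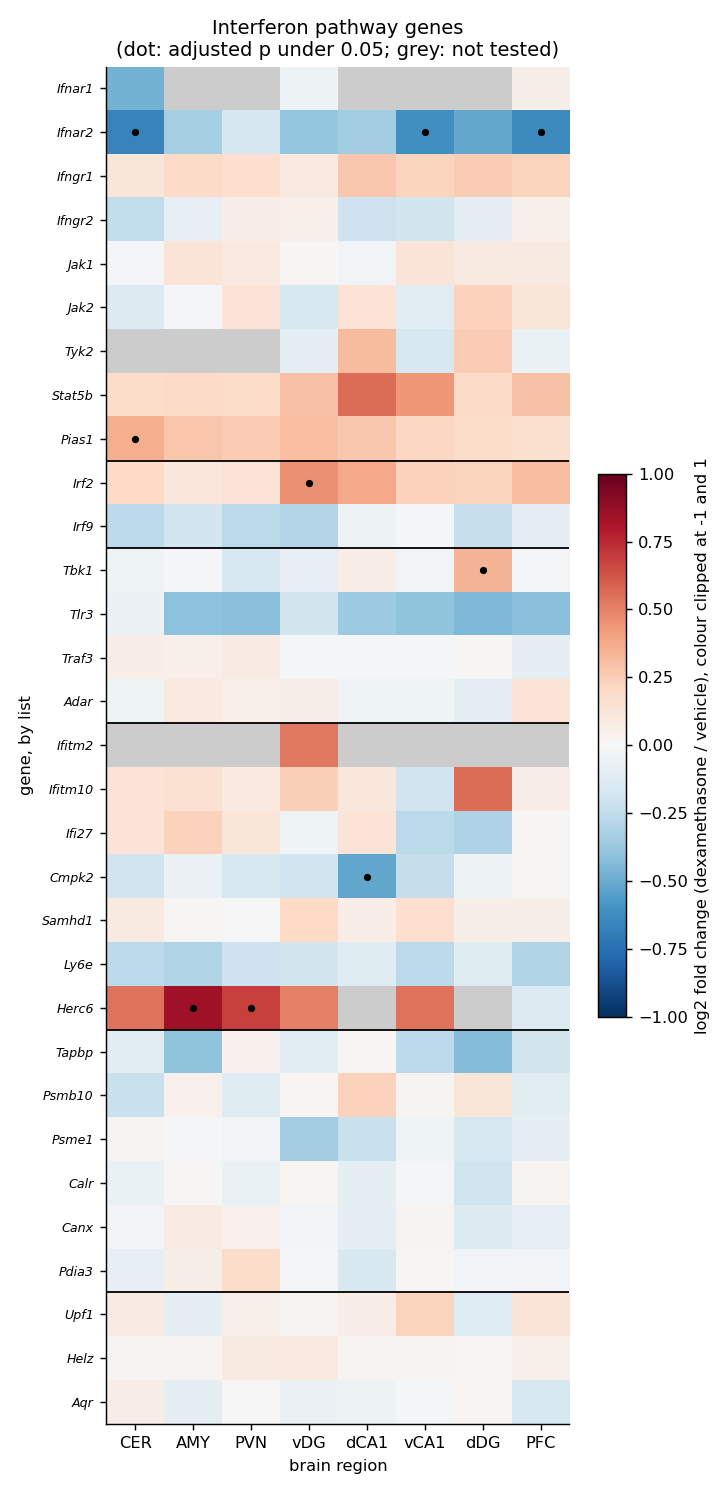
Log2 fold change (colour, clipped at -1 and 1) of tested list genes (rows) in each region (columns); dots mark an adjusted p under 0.05 and grey squares were not tested. Lines part, from the top, the JAK-STAT genes, interferon regulatory factors, nucleic acid sensing, effectors, MHC class I genes and superfamily 1 helicases; dots are few, and Ifnar2 has 3 of them.

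Among the antiviral effectors, Ifitm3, a membrane protein that blocks virus entry and is abundant in vessels, was negative in the 6 regions where it was tested. In dDG its vehicle libraries ran from 14.9 through 34.9 to 63.0 CPM and its treated libraries from 9.65 through 18.1 to 34.9 CPM. Of the 15 treated libraries 6 lay below the lowest vehicle library, and the groups overlapped. Ifitm3 fell there by 0.78 ± 0.21 (SE) on the log2 scale (edgeR's quasi-likelihood test, adjusted p = 0.02006, n = 15 and 15). In vCA1 it differed by -0.61 ± 0.20 (SE, adjusted p = 0.07242), and in CER, dCA1, PFC and vDG by -0.35 to -0.15.

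Part of the endothelial markers fell as well. Of 56 tests of 7 endothelial markers, 27 fell and 0 rose, and all 27 were of Flt1, Slco1a4, Kdr and Itm2a. The other 3 passed in no region: Ly6c1 had values of 0.02 to 0.33, Pecam1 of -0.41 to 0.09 and Ly6a of -0.35 to -0.02. In dDG the summed level of all 11 listed markers ran from 338.4 to 624.8 CPM in vehicle and from 245.9 to 399.6 CPM after dexamethasone. With the endothelial level as a covariate, an alternative chosen after seeing the data, the dDG value of Ifitm3 was 0.34 (adjusted p = 0.886) and its vDG value rose to 0.93 (adjusted p = 0.01924). That covariate itself follows treatment, and with it 56 genes rose and 8 fell in dDG, against 199 and 117 without it. Whether Ifitm3 fell within endothelial cells and whether less endothelial RNA was sampled cannot be told apart. Other marker lists differed in dDG too. Their median log2 fold change was -0.75 for choroid plexus, -0.43 for pericytes and smooth muscle, -0.40 for microglia and 0.08 for neurons. The part of these in the Ifitm3 value was not tested.

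Bst2, known as tetherin, which holds budding viruses to the cell surface, was near the limit of detection. It had 811 counts in all, 21 libraries had 0 (which allows up to 2.93 to 8.3 CPM in such a library), and group means lay between 2.25 and 8.19 CPM, so it was tested in no region. Without the low-count filter its log2 values were all negative, between -0.67 and -0.06, and passed in no region (lowest adjusted p = 0.4293). The SE of these values was 0.28 to 0.44, so small differences in Bst2 were not detectable at this depth.

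Of the other interferon-stimulated effectors, 7 of 37 in the table had counts enough, and of their 47 tests 2 rose and 1 fell. Over all genes 3.23% of tests rose and 1.94% fell. Herc6, a ubiquitin ligase family member induced by interferon, rose in AMY by 0.85 ± 0.15 (SE, adjusted p = 0.0001138) and in PVN by 0.68 ± 0.16 (SE, adjusted p = 0.003303). Its values were 0.54 ± 0.20 in CER, 0.54 ± 0.19 in vCA1, 0.50 ± 0.21 in vDG and -0.14 ± 0.12 in PFC, so that PFC was the lowest of the 6 regions where it was tested. The vehicle mean of Herc6 (with prior count) was 57.2 CPM in PFC, against 14.1 to 19.5 CPM in the other tested regions. With the replicate block, Herc6 passed in CER too (0.60, adjusted p = 0.0197), Ly6e fell in PFC (-0.28, adjusted p = 0.04215), and 5 of the list's tests passed in place of 3. Cmpk2, a mitochondrial nucleotide kinase induced by interferon, fell in dCA1 by 0.52 ± 0.16 (SE) on the log2 scale (adjusted p = 0.04815), and did not pass without the low-count filter (adjusted p = 0.08631). Its value in dCA1 ran from -0.58 to -0.51 over 8 planned settings.

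Fewer of the 9 calls among list genes (of Ifnar2, Pias1, Irf2, Tbk1, Herc6 and Cmpk2) passed with the covariates added after seeing the data. The endothelial level itself follows treatment, and why calls were lost with it was not tested. With the endothelial level, 1 of the 9 still passed, that of Ifnar2 in vCA1 (-0.85, adjusted p = 0.03623). Herc6 was then at 0.79 in AMY (adjusted p = 0.1187) and 0.73 in PVN (0.1618), against 0.85 and 0.68 without that level. Irf2 in vDG was at 0.50 (0.05027), against 0.46. Smaller in size were Ifnar2 in PFC (-0.40, against -0.64) and in CER (-0.54, against -0.67), and Pias1 in CER (0.26, against 0.36). With the endothelial level 7 other list tests passed, among them Stat5b in dCA1 (1.18, adjusted p = 0.001045), Herc6 in vCA1 (1.02, adjusted p = 0.01969) and Herc6 in vDG (0.92, adjusted p = 0.0187). With the oligodendrocyte level 6 of the 9 passed, and Tbk1 in dDG (adjusted p = 0.05653), Cmpk2 in dCA1 (0.05123) and Ifnar2 in vCA1 (0.06004) did not. Their values were 0.32, -0.51 and -0.53, against 0.34, -0.52 and -0.61 without a covariate. In dCA1 Irf2 passed with the oligodendrocyte level (adjusted p = 0.04647), in DESeq2 (0.04939) and in the fit that held RIN (0.0479), and with date and plate as factors Herc6 passed in CER (0.58, adjusted p = 0.0219) and vCA1 (0.62, adjusted p = 0.0423).

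No MHC class I member passed the test in any region. B2m, the light chain, lay between -0.13 and 0.15 in the 8 regions (lowest adjusted p = 0.6275, edgeR's quasi-likelihood test). In CER its vehicle libraries ran from 166.8 through 205.1 to 295.5 CPM and its treated libraries from 157.9 through 211.7 to 252.8 CPM, and the ranges overlapped there and in every other region. Its SE of 0.07 to 0.14 is small against the 1.89 of Znfx1 in CER. With the endothelial level as a covariate B2m passed in dCA1 (0.35, adjusted p = 0.01588), PFC (0.64, adjusted p = 0.008554) and vDG (0.45, adjusted p = 0.04455).

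The 2 heavy chains leaned lower without passing. H2-K1 was negative in 8 of 8 regions, at -0.41 to -0.04, and H2-D1 in 7 of 8, at -0.38 to 0.04. Both had their most negative value in dDG: H2-K1 ran from 35.5 through 56.7 to 111.0 CPM in vehicle and from 23.2 through 46.6 to 62.3 CPM after dexamethasone, -0.41 ± 0.16 (SE, adjusted p = 0.2257). H2-D1 in dDG ran from 14.0 through 26.3 to 46.0 CPM and from 5.91 through 22.9 to 34.9 CPM, -0.38 ± 0.18 (SE, adjusted p = 0.3547). The groups overlapped in both. The 2 are near copies of each other, but of the 86 words of 75 bases in the last 500 bases of each transcript, where these libraries take their tags, 0 occur in another gene.

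Of the 6 other tested genes (of 20) of MHC class I presentation, which make or load the peptides (Tapbp, Psmb10, Psme1, Calr, Canx and Pdia3), 0 of 48 tests passed (5 with an unadjusted p under 0.05, 0 with DESeq2), with values from -0.43 to 0.23 and a median of -0.03. The value farthest from 0 was that of Tapbp, the chaperone tapasin, in dDG (-0.43 ± 0.14 SE, adjusted p = 0.07124).

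**Figure D5:**
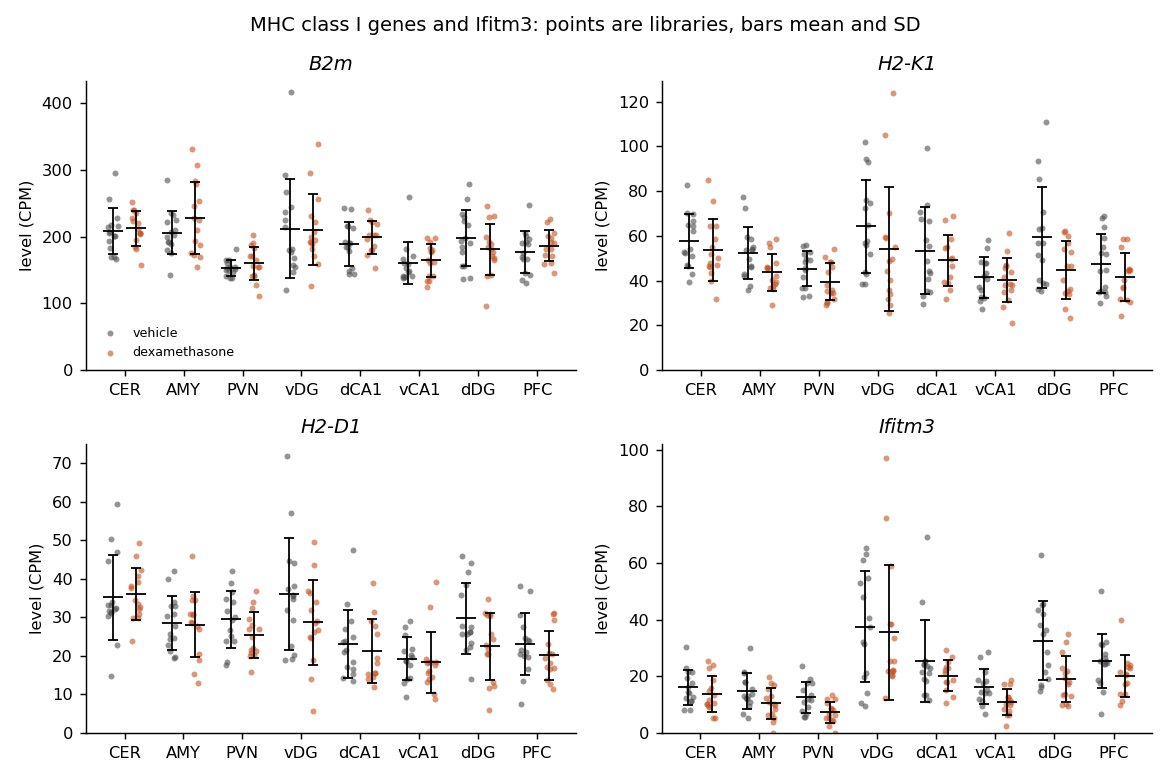
Level in CPM (vertical) of B2m, H2-K1, H2-D1 and Ifitm3 in each library by region (horizontal), vehicle in grey and dexamethasone in orange, with mean and SD as bars. The vehicle and treated ranges overlap in every region for all 4 genes, and Ifitm3 in dDG goes from a mean of 32.6 to 19.1 CPM.

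In a single fit over all regions, the response of the 7 other members with counts enough differed among regions in 0 cases (edgeR's quasi-likelihood F test of 7 interaction terms, adjusted p = 0.9999 for each, 0 with an unadjusted p under 0.05, and 0 with DESeq2). The fit held no term for the animal, so regions of the same animal were treated as independent. Among all genes 1.17% of 11053 passed this test. A missed threshold does not show equal responses, and for a gene such as Ifitm3 the SE in a region is 0.18 to 0.28.

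In vehicle animals, before any drug, the level of 6 of 7 tested members other than Znfx1 differed among the 8 regions, beside 73.3% of 10451 genes, so a regional difference is the usual case. Ifitm3 ranged from 12.5 ± 5.50 CPM (SD, n = 14) in PVN to 37.45 ± 19.6 CPM (SD, n = 15) in vDG (edgeR's quasi-likelihood F test with animal as a factor, adjusted p = 4.451e-12). B2m ranged from 153.6 ± 12.1 in PVN to 212.2 ± 74.3 CPM in vDG (adjusted p = 6.661e-05). H2-D1 ranged from 19.3 ± 5.56 in vCA1 to 36.1 ± 14.5 CPM in vDG (adjusted p = 6.255e-07), and H2-K1 from 41.4 ± 9.23 to 64.3 ± 20.7 CPM in the same 2 regions (adjusted p = 0.0007094). vDG was thus highest for all 4, and no step between neighbouring regions exceeded 1 SD for any of them.

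Stat3 ranged from 70.1 ± 23.6 in vDG to 93.05 ± 20.5 CPM in dDG (adjusted p = 0.002393) and Irf3 from 15.4 ± 6.80 in PFC to 21.7 ± 6.57 CPM in dDG (adjusted p = 0.01549). Stat2 did not pass (adjusted p = 0.1486). PFC, where vehicle Znfx1 was highest, ranked 5th of 8 for Stat2 and Stat3, 3rd for Ifitm3, 6th for B2m and H2-K1, 7th for H2-D1 and 8th for Irf3.

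Over libraries, with groups centred, r among the MHC class I genes was higher than r of Znfx1 with any of them, a difference that was not tested. Pearson r was 0.46 for B2m with H2-K1, 0.39 for B2m with H2-D1 and 0.38 for H2-D1 with H2-K1. Ifitm3 had r of 0.41 with B2m, 0.36 with H2-K1 and 0.35 with H2-D1. Znfx1 had r of 0.29 with B2m, 0.18 with H2-D1 and 0.12 with H2-K1. The genes most correlated with B2m were Cd81 (a tetraspanin, r = 0.60), Apoe (apolipoprotein E of glia, r = 0.60) and Selenop (a selenium carrier, r = 0.59). All are over the 118 vehicle and 117 dexamethasone libraries together, and counting error weighs more in genes of low count.

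Most interferon-induced genes of the lists had too few counts for the low-count filter. Without that filter, 2.05% of 150649 tests over all genes rose and 1.28% fell. The effectors then had 7 rises and 19 falls in 291 tests, the interferon regulatory factors 1 and 9 in 64, the sensing genes 5 and 6 in 128, the JAK-STAT genes 3 and 4 in 126, the MHC class I genes 0 and 2 in 159 and the helicases 0 and 0 in 73. The genes named next were chosen after their values were seen, and their fold changes rest on few counts and on the prior count of the fit.

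Irf8, a factor of microglia and other myeloid cells with a mean of 6.489 counts per library, fell in 8 of 8 regions without the filter, with values of -1.43 to -1.14 (adjusted p from 5.503e-05 to 0.01861). Tmem173, which encodes the DNA sensing adaptor STING, fell in 5 regions, with values of -2.36 to -1.45. Ifit3, which binds foreign RNA, fell in 4, with values of -1.66 to -1.13. Tlr7, the receptor for single-stranded RNA, rose in 4 regions (1.31 to 1.41), and so did Irgm1, an immunity-related GTPase (1.05 to 1.44). Stat5a rose in dCA1 (1.18) and PFC (1.64), with 2.038 counts per library. Over the 6 lists, the genes that the filter left out in every region gave 37 falls, of 17 genes, and 11 rises, of 4 genes. Of the 9 falls among the regulatory factors 8 were of Irf8, and the other was of Irf4 in CER, with 7 counts in all vehicle libraries and 0 after dexamethasone.

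Microglia, which carry much of the interferon and MHC machinery of the brain, had less marker RNA after dexamethasone in every region. Of 75 tests of the 11 tested of 13 microglial markers 24 fell (of Cx3cr1, P2ry12, Sall1 and Tyrobp) and 0 rose. The median of the summed level went from 753.9 to 492.3 CPM in AMY, from 406.9 to 268.8 in CER and from 551.4 to 381.6 in PFC, and no marker was at 0. The part of this in the member and list results was not tested. Among the other marker lists, neurons passed in 0 of 56 tests, pericytes and smooth muscle in 0 of 32 and blood cells in 0 of 31. Astrocytes had 1 rise (Aldh1l1) and 1 fall (Aqp4) in 56 tests, and the choroid plexus 1 fall (Ttr, in vCA1) in 11. Dentate granule cell markers had 3 rises and 5 falls in 44 tests, and their part in the results from the hippocampal punches was not tested except by the covariate in vCA1.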

How the data were processed

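RNA of brain punches was sequenced as 3′ tag libraries with unique molecular identifiers. Per the submitters' processing notes, the authors used FastQC 0.11.4, cutadapt, UMI-tools 0.5.4, STAR 2.6.0a and featureCounts 1.6.4 on mm10; annotation, strand and multimapping settings are not given in the sources used here. The deposited values used are raw counts per gene. The deposited log2-scale variance-stabilised tables of the authors served only to name the 7 libraries they do not list.

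From the counts, edgeR 4.0.16 (R 4.3.3) fitted each region with filterByExpr, TMM scaling and the quasi-likelihood test, Benjamini-Hochberg adjusted over all genes tested at 0.05. DESeq2 1.42.0 was an alternative among 10 planned settings, and 2 covariates were added after seeing the data. Levels are CPM, and log2 CPM uses a prior count of 2. Libraries held 268538 to 1451422 counts, and genes with few counts were not tested in some or all regions. Tested on made-up counts with 200 genes changed, the CER fit recovered 94% of genes changed by 1 on the log2 scale and 65% of those changed by 0.5, and the interaction fit 77% and 26%.

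The members and lists were chosen with earlier results of these data known. Named genes are the 9 members, up to 3 genes per list that passed in most regions, the 5 nearest to Znfx1 in response (genes tested in all 8 regions), and the 3 most correlated over libraries with Znfx1 and with B2m (mean of at least 20 CPM). Animals are numbered alike in both arms: all 115 same-numbered pairs shared a sequencing plate per the labels and 109 a date of punching, so the numbers mark a shared batch. Their deviations correlated over 0.1 in 73 of 115 pairs (median 0.166), and a fit with the replicate number as a block was made. Libraries of a group are separate animals. Other named genes (among them Tlr3, Tapbp, Stat5b, Ly6e and those named without the low-count filter) were chosen after their values were seen. Some genes of the lists are not reported here, and most list genes are given only in counts and summed levels.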

Additional observations from a re-analysis of the deposited data

How the results depend on the processing

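Of 541 values of the members other than Znfx1 under other settings, 535 kept their direction where called and their side of the threshold. Without turning sign, 4 gained a call and none lost one, and 28 near 0 changed sign without a call. The endothelial covariate gave Ifitm3 values of 0.34 in dDG, where the call was lost, and 0.93 in vDG, where a call was gained. Both had turned in sign. For Znfx1, 81 of 82 values stayed within 1 SD; the endothelial covariate moved AMY to 2.36, and it gave 0.37 in PFC and 0.85 in dDG, over 1.5 times the values without it. Scalings shifted the median of all genes by -0.02 to 0.002622.

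Of 306 counts, 250 stayed within 1.5 times. Requiring 10 counts in every library tests fewer genes. Rises over all genes then numbered 187 in AMY (305 otherwise), 173 in CER (352), 122 in dCA1 (224), 124 in dDG (199), 227 in PFC (355), 180 in PVN (331), 180 in vCA1 (311) and 134 in vDG (246), and falls 105 (179), 113 (206), 113 (184), 64 (117), 118 (210), 112 (191), 103 (186) and 60 (120) in the same order. The interaction called 26 genes (129) and vehicle regions 3222 (7662). With this filter 0 members fell, 3 members differed among vehicle regions (6), and calls were 1 for JAK-STAT genes (4), 0 for sensing (1) and 0 for effectors (3). Without a filter 196 genes fell in dDG, and calls were 7 for JAK-STAT, 10 for regulatory factors (1), 11 for sensing, 26 for effectors and 2 for MHC class I (0). The replicate block (pairing) gave 322 rises and 221 falls in dDG, 2 sensing and 5 effector calls, and changed no member's call. The dentate level gave 198 rises and 93 falls in vCA1, date and plate 5 effector calls, DESeq2 and RIN 2 regulatory factor calls each, and upper-quartile scaling 0 sensing calls. Added after seeing the data, the endothelial level gave 612 rises and 325 falls in dCA1, 56 and 8 in dDG, 105 and 65 in PFC, 165 and 44 in PVN, 396 rises in vDG, and 113 falls in AMY and 73 in vCA1. With it 6 member tests rose and 0 fell, and regulatory factors and sensing had 0 calls each. The oligodendrocyte level gave 2 and 0 calls for those lists. Except for the tests lost under the filter of 10 counts, the cause was not tested. Among the 9 members, Bst2 had the fewest counts.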
